A study of Mus musculus with 20 samples.

Results

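The mouse melanoma lines YUMM3.3 and B16F10 were compared with each other as they grew in culture, before any host was involved. Every gene set that the authors' enrichment reports list for this comparison was included, which gave 3871 sets of the 27169 entries over all the comparisons of the series. The series holds 20 RNA-seq libraries, of which 6 are of the lines, 3 for each line. The other libraries are of cells named here as myeloid. They were obtained by depleting CD3e-positive cells from bone marrow or spleen of healthy mice and of mice bearing either tumour. Which other cell types remained after that step was not tested. Both lines are labelled as melanoma of the C57BL/6 strain. Cells were seeded at 1000000 in a 100 mm plate and grown for 4 days, and no agent is named for either line. Each line is a single established line, so a difference between them is one between these lines and not between classes of tumour. Whether the 3 libraries of a line came from separate cultures is not stated.

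B16F10 was derived from a spontaneous C57BL/6 melanoma by repeated selection of cells that seed the lung, and it is known as a pigmented, poorly immunogenic line. YUMM3.3 belongs to a panel of lines made from genetically engineered mouse melanomas driven by mutant Braf together with loss of Cdkn2a, which encodes an inhibitor of the kinases that inactivate RB. Melanoma cells are known to move between a differentiated state, with pigment enzymes and oxidative metabolism, and a dedifferentiated state, with matrix, growth factor and TGF-beta genes. Melanosomes are organelles related to lysosomes and share with them the vacuolar proton pump and much of their sorting machinery.

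The value reported for each set is a normalised enrichment score (NES). It is high when the set's genes gather at the YUMM3.3 end of a list of all genes ranked between the lines, and negative when they gather at the B16F10 end. The leading edge is the part of the set that lies before the score turns, given as a percent of the set's genes, and the rank at the maximum is the place in the gene list where it turns. Every NES, set size, rank, leading edge and q value of a set below is from the authors' deposited table. A set is called higher in a line at a deposited false discovery rate q below 0.05. The tables give 1 value per set, so no spread between libraries could be computed, the depth of the libraries is unknown, and single genes, pigment markers among them, could not be looked up. Which end belongs to which line was taken from how the reports are labelled, up or down, and could not be checked in the values.

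The reports leaned to YUMM3.3. Of the 3871 sets in the authors' deposited table, 458 were called higher in YUMM3.3, which is 11.8%. Those called higher in B16F10 numbered 57, or 1.47%, and 3356 sets were not called. The NES was above 0 for 2839 sets (73.3%), with a median of 1.08 over all sets and a range from -2.30 to 2.32. The lean was also present among sets that were not called, so the counts of each theme below are read beside it. By collection, Reactome had 49 sets called higher in YUMM3.3 and 16 higher in B16F10 of 889, KEGG 8 and 9 of 170, and PID 19 and none of 179. The lists from single studies had 368 and 32 of 2488. Among these collections KEGG alone had more calls on the B16F10 side, with a median NES of 0.52, and the difference between collections was not tested. Called sets had an NES of at least 1.59 on the YUMM3.3 side and of -1.70 or lower on the B16F10 side. The set just inside the threshold on the YUMM3.3 side was DAZARD_UV_RESPONSE_CLUSTER_G6, with q = 0.0490, and the one just outside was BOQUEST_STEM_CELL_DN, with q = 0.0507. On the B16F10 side these were REACTOME_MITOCHONDRIAL_FATTY_ACID_BETA_OXIDATION, with q = 0.0498, and WENG_POR_TARGETS_LIVER_DN, with q = 0.0516.

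**Figure D1:**
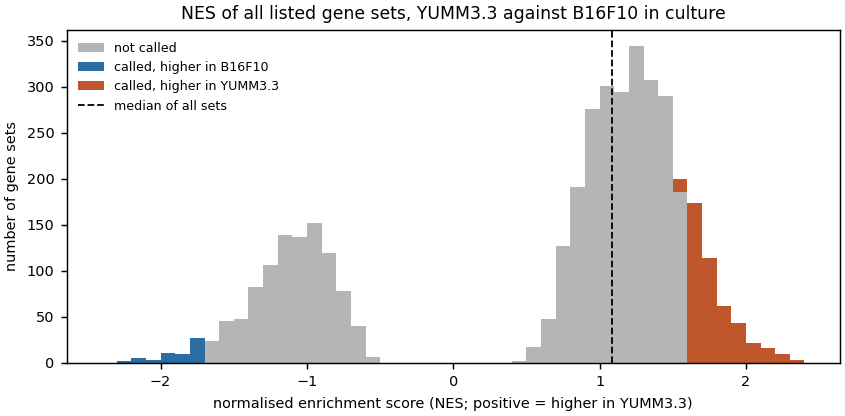
Number of gene sets (vertical axis) in each interval of NES (horizontal axis, positive is higher in YUMM3.3) for all 3871 sets; colours mark sets called higher in YUMM3.3 (458), called higher in B16F10 (57) and not called (3356). The scores form a larger peak above 0 and a smaller one below 0, with almost none between, and the dashed line marks the median of 1.08.

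The leading sets of the sides named different biology. The leading YUMM3.3 sets described here, 10 in number and taken by NES with no more than 2 whose names begin with the same word, were about extracellular matrix, integrins, invasion, TGF-beta and epithelial to mesenchymal transition (EMT), with 1 set of brain cancer progenitors and 1 of liver cancer beside them. The set at the top was NABA_CORE_MATRISOME, the structural proteins of the extracellular matrix, with an NES of 2.32 over 234 genes. On the B16F10 side, 3 of the 12 leading sets were sets of oxidative phosphorylation, 4 were sets of interferon response, and 1 each was of lysosome and iron uptake. KEGG_OXIDATIVE_PHOSPHORYLATION, whose members include the mitochondrial respiratory chain and its ATP synthase, led them with an NES of -2.30 over 85 genes. Which of its genes lie in the leading edge is not given.

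**Figure D2:**
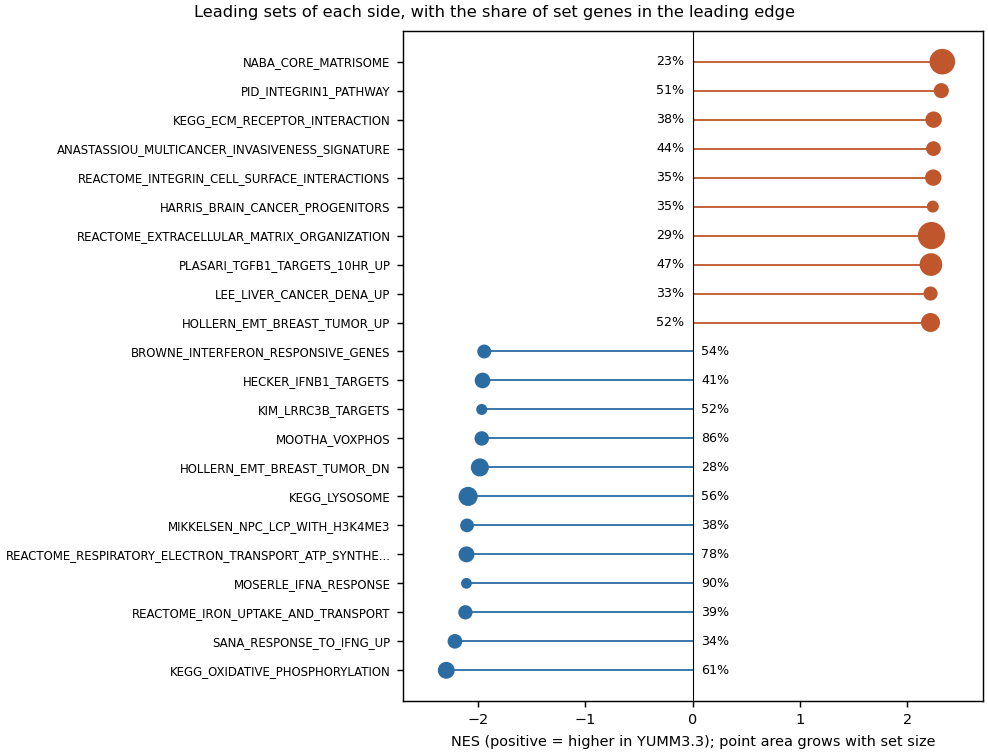
The leading sets described for YUMM3.3 (10) and B16F10 (12) by NES (horizontal axis, positive is higher in YUMM3.3), with point area growing with set size and the percent of the set's genes in the leading edge printed at the zero line. YUMM3.3 sets run from 2.21 to 2.32 and B16F10 sets from -1.94 to -2.30, and the leading edge reaches 86% in MOOTHA_VOXPHOS and 90% in MOSERLE_IFNA_RESPONSE.

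Sets of extracellular matrix, collagen and integrin were the most often called of the 39 themes. A theme holds the sets whose names match a word pattern, without names ending in DN. By the authors' deposited table, 32 of 46 were called higher in YUMM3.3 (69.6%, against 11.8% of all sets) and none higher in B16F10. The theme's median NES was 1.88, against 1.08 over all sets, and 45 of its 46 sets were above 0. The exception, ASTIER_INTEGRIN_SIGNALING, had an NES of -1.07 (q = 0.630). It is named here after its value was seen, as are all members of the matrisome, integrin and other families given below that the naming rule did not pick.

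Structural matrix came first. The matrisome collection splits matrix proteins by kind, and 5 of its 8 sets were called higher in YUMM3.3. NABA_ECM_GLYCOPROTEINS, the adhesive glycoproteins such as fibronectins and laminins, had an NES of 2.15 by the authors' deposited table, NABA_COLLAGENS 2.10 and NABA_BASEMENT_MEMBRANES 1.94. NABA_SECRETED_FACTORS, the growth factors and cytokines that bind matrix, had 1.97. The other 3 sets were not called and had lower scores, with NABA_ECM_AFFILIATED at 1.51, NABA_PROTEOGLYCANS at 1.48 and NABA_ECM_REGULATORS, the proteases and their inhibitors, at 1.21. Thus the calls in this collection fell on structural and secreted classes, and the difference between classes was not tested. NABA_COLLAGENS and REACTOME_COLLAGEN_CHAIN_TRIMERIZATION have the same size (39), enrichment score (0.811) and rank at the maximum (650), so they count as a single observation.

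Collagen processing followed the same direction in the authors' deposited table. REACTOME_COLLAGEN_FORMATION had an NES of 2.10, REACTOME_ASSEMBLY_OF_COLLAGEN_FIBRILS_AND_OTHER_MULTIMERIC_STRUCTURES 2.15 and REACTOME_CROSSLINKING_OF_COLLAGEN_FIBRILS 1.84, the last with 61% of its 18 genes in the leading edge. Sets of matrix breakdown were called on the same side: REACTOME_DEGRADATION_OF_THE_EXTRACELLULAR_MATRIX had 2.14 and REACTOME_COLLAGEN_DEGRADATION 1.98. PID_UPA_UPAR_PATHWAY, the urokinase receptor system that activates plasmin at the cell surface, had 1.89. Collagen synthesis and breakdown sets share the collagen chains themselves as members, and the files do not say which genes lie in their leading edges.

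Receptors for matrix were called with the matrix. Of 16 sets with integrin in the name, 10 were called higher in YUMM3.3, with a median NES of 1.65. Among the 10 is REACTOME_NON_INTEGRIN_MEMBRANE_ECM_INTERACTIONS at 2.09, which by its name is about other receptors than integrins. PID_INTEGRIN1_PATHWAY, the beta-1 integrins that bind collagen, laminin and fibronectin, had an NES of 2.32 with 51% of its 63 genes in the leading edge, by the authors' deposited table. PID_AVB3_INTEGRIN_PATHWAY, the vitronectin receptor, had 2.05 and PID_INTEGRIN_A4B1_PATHWAY 1.69, while PID_A6B1_A6B4_INTEGRIN_PATHWAY, the laminin-binding integrins of epithelia, had 1.43 (q = 0.118). Syndecans, the transmembrane heparan sulfate proteoglycans, were mixed. REACTOME_SYNDECAN_INTERACTIONS at 1.96 and PID_SYNDECAN_1_PATHWAY at 1.95 were called, while PID_SYNDECAN_4_PATHWAY at 1.57 (q = 0.0551), PID_SYNDECAN_2_PATHWAY at 1.43 and PID_SYNDECAN_3_PATHWAY at 1.29 were not.

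Many of these scores come from the same stretch of the ranked list. Of the 458 sets called higher in YUMM3.3, 220 turn at a rank where another called set also turns. Rank 975 is shared by 9 called sets of the authors' deposited table, NABA_CORE_MATRISOME, NABA_ECM_GLYCOPROTEINS and REACTOME_EXTRACELLULAR_MATRIX_ORGANIZATION among them, together with FRIDMAN_SENESCENCE_UP. Rank 901 is shared by 7, including KEGG_ECM_RECEPTOR_INTERACTION and REACTOME_INTEGRIN_CELL_SURFACE_INTERACTIONS. Sets that turn at the same rank end their leading edge on the same gene, so they are not independent counts, and the count of sets overstates the number of separate differences.

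TGF-beta sets had no score below 0. All 31 sets of TGF-beta, BMP and SMAD had an NES above 0 in the authors' deposited table, from 0.77 to 2.22, and 15 were called higher in YUMM3.3 (48.4%). TGF-beta signals through receptor kinases to SMAD transcription factors and is a known inducer of matrix genes and of EMT. PLASARI_TGFB1_TARGETS_10HR_UP, genes induced in fibroblasts after 10 hours of TGF-beta1, had an NES of 2.22 over 177 genes. PLASARI_TGFB1_TARGETS_1HR_UP, the early response of the same study, had 1.93 with 73% of its 33 genes in the leading edge, and both turn at rank 1899.

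Response sets and pathway sets were both among the calls. VERRECCHIA_EARLY_RESPONSE_TO_TGFB1 had an NES of 2.09 over 47 genes and VERRECCHIA_DELAYED_RESPONSE_TO_TGFB1 1.61 over 35 in the authors' deposited table. KEGG_TGF_BETA_SIGNALING_PATHWAY had 1.82 and REACTOME_SIGNALING_BY_TGF_BETA_FAMILY_MEMBERS 1.78. PID_BMP_PATHWAY, the branch through SMAD1 and SMAD5, had 1.71. Sets that name the receptor were mixed. REACTOME_SIGNALING_BY_TGF_BETA_RECEPTOR_COMPLEX had 1.66 (q = 0.0276) and was called, while PID_TGFBR_PATHWAY at 1.51 (q = 0.0817) and REACTOME_TGF_BETA_RECEPTOR_SIGNALING_ACTIVATES_SMADS at 1.21 (q = 0.299) were not.

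EMT and invasion sets were called higher in YUMM3.3 in 15 of 53 cases (28.3%), with a median NES of 1.30 and none called higher in B16F10. In EMT, epithelial cells lose junctions and gain motility, and melanoma cells, which are not epithelial, use many of the same genes. ANASTASSIOU_MULTICANCER_INVASIVENESS_SIGNATURE, a stroma-like signature of collagens found across carcinomas, had an NES of 2.24 over 59 genes in the authors' deposited table. GOTZMANN_EPITHELIAL_TO_MESENCHYMAL_TRANSITION_UP, from hepatocytes, had 2.19 with 57% of its 61 genes in the leading edge. HOLLERN_EMT_BREAST_TUMOR_UP, from mouse mammary tumours of EMT type, had 2.21, and its counterpart HOLLERN_EMT_BREAST_TUMOR_DN had -1.98 over 101 genes and was called higher in B16F10.

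Sets of RAS, RAF and MAPK were called higher in YUMM3.3 in 7 of 43 cases (16.3%, against 11.8% of all sets), with a median NES of 1.27. The RAS proteins pass growth signals through RAF kinases to MAPK, and the sets were defined in other cells. BILD_HRAS_ONCOGENIC_SIGNATURE, from epithelial cells with active Hras, had an NES of 1.84 with 36% of its 199 genes in the leading edge in the authors' deposited table. REACTOME_MAPK_FAMILY_SIGNALING_CASCADES had 1.69 over 258 genes. Of the other pathway sets, 3 with scores above 0 that were not called were KEGG_MAPK_SIGNALING_PATHWAY at 1.48 (q = 0.0938), REACTOME_ONCOGENIC_MAPK_SIGNALING 1.42 (q = 0.127) and REACTOME_SIGNALING_BY_BRAF_AND_RAF_FUSIONS 1.32 (q = 0.195). CASTELLANO_NRAS_TARGETS_UP lay on the other side at -1.51 (q = 0.182).

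Growth factor receptors formed the theme with the most sets. Of 135 sets, 34 were called higher in YUMM3.3 (25.2%) and none higher in B16F10, with a median NES of 1.33. REACTOME_SIGNALING_BY_PDGF, the platelet-derived growth factor receptors of mesenchymal cells, had an NES of 1.99 by the authors' deposited table. NAGASHIMA_EGF_SIGNALING_UP had 1.97 and NAGASHIMA_NRG1_SIGNALING_UP, the response to neuregulin through ERBB receptors, 1.95. XU_HGF_SIGNALING_NOT_VIA_AKT1_6HR, a response to the ligand of MET, had 1.77.

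Immediate and delayed responses to growth factors could be compared over a single study. The 16 sets of the EGF and serum time courses in HeLa and MCF10A cells all had an NES above 0 in the authors' deposited table, and 9 were called higher in YUMM3.3. AMIT_SERUM_RESPONSE_60_MCF10A had the highest score, 2.13, and AMIT_SERUM_RESPONSE_480_MCF10A the lowest, 0.81 (q = 0.880). For EGF in HeLa cells the latest set, AMIT_EGF_RESPONSE_480_HELA, had 1.90, and the scores had no order in time. FGF receptor sets gave few calls. Of 10 sets naming FGFR1, 2 were called, and none was among 12 naming FGFR2, 6 naming FGFR3 and 6 naming FGFR4, whose median NES was 1.24, 0.81 and 1.01. These sets share most of their downstream genes with each other.

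RHOA, the GTPase that builds stress fibres, was named in sets of cells it had transformed. BERENJENO_TRANSFORMED_BY_RHOA_UP had an NES of 2.10 over 459 genes in the authors' deposited table. In that study sets of opposite naming were also called on the same side, with BERENJENO_TRANSFORMED_BY_RHOA_FOREVER_DN at 1.98.

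The RB pathway was represented by 21 sets with senescence and CDKN2A, of which 6 were called higher in YUMM3.3 (28.6%, against 11.8% of all sets). All 6 were lists from single studies. The theme's median NES was 1.11, near the 1.08 of all sets, and 5 of its sets lay below 0. RB holds E2F factors in check and is released when CDK4 is active, which the Cdkn2a product p16 prevents. No value of Cdkn2a was available for either line, and its relation to these calls was not tested. MARKEY_RB1_ACUTE_LOF_UP, genes that rise on acute loss of RB, had a leading edge of 50% of its 200 genes at q = 0.000195. MARKEY_RB1_CHRONIC_LOF_UP had 1.95 in the authors' deposited table. RB1 targets of another study were listed by the state of its cells: CHICAS_RB1_TARGETS_CONFLUENT had 1.88, CHICAS_RB1_TARGETS_GROWING 1.68, CHICAS_RB1_TARGETS_SENESCENT 1.55 (q = 0.0612) and CHICAS_RB1_TARGETS_LOW_SERUM -1.12 (q = 0.569).

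Cell cycle sets as a whole lay near the background. Of 80, 6 were called higher in YUMM3.3 (7.50%, below the 11.8% of all sets), none was called higher in B16F10, and the median NES was 1.04. The calls concerned mitosis and E2F. FISCHER_G2_M_CELL_CYCLE in the authors' deposited table had an NES of 2.04 with 52% of its 201 genes in the leading edge, IGLESIAS_E2F_TARGETS_UP 2.02 and WHITFIELD_CELL_CYCLE_G2_M 1.83. Within the series of phases from the last study, WHITFIELD_CELL_CYCLE_G2 had 1.43, WHITFIELD_CELL_CYCLE_M_G1 1.15, WHITFIELD_CELL_CYCLE_G1_S 0.78 and WHITFIELD_CELL_CYCLE_S -1.10, none of them called. Of these phase sets the G2 and M set was the one called, and the difference between phases was not tested.

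DNA repair, RNA processing and MYC sets gave 1 call between them. None of 45 DNA repair sets was called on either side, and the highest score, PUJANA_BREAST_CANCER_WITH_BRCA1_MUTATED_UP, was 1.55 (q = 0.0629). None of 43 sets of RNA splicing and processing was called, with REACTOME_MRNA_SPLICING highest at 1.51 (q = 0.0820). Of 32 MYC sets, YU_MYC_TARGETS_UP was the one called, with an NES of 1.74 over 35 genes in the authors' deposited table. With names ending in DN kept in, 45 MYC sets gave 2 calls, both higher in YUMM3.3.

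Of 16 sets of ribosome and translation, 4 were called higher in YUMM3.3 (25%, against 11.8% of all sets). In this theme 1 set was called higher in B16F10 (6.25%, against 1.47%), and 11 were not called. KEGG_RIBOSOME in the authors' deposited table had an NES of 1.63 (q = 0.0340) and REACTOME_NONSENSE_MEDIATED_DECAY_NMD, which is made up largely of ribosomal proteins, 1.68. BILANGES_SERUM_RESPONSE_TRANSLATION, translation factors regulated by serum, had 1.70. REACTOME_MITOCHONDRIAL_TRANSLATION, the ribosome inside mitochondria, had -1.71 with 57% of its 81 genes in the leading edge. REACTOME_EUKARYOTIC_TRANSLATION_INITIATION at 1.55 (q = 0.0610) and REACTOME_TRANSLATION at -0.71 (q = 0.989) were among those not called. The called scores of this group were near the threshold and turned late in the list, at ranks 3513 and 4223 for the decay and the mitochondrial set.

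Mitochondrial respiration was the theme with the most calls on the B16F10 side. Of 19 sets in the authors' deposited table, 9 were called higher in B16F10 (47.4%, against 1.47% of all sets) and none higher in YUMM3.3, and the median NES was -1.65. The sets of the respiratory chain had large leading edges. REACTOME_RESPIRATORY_ELECTRON_TRANSPORT had an NES of -2.10 with 82% of its 68 genes in the leading edge, and MOOTHA_VOXPHOS, a curated list of oxidative phosphorylation genes, -1.97 with 86% of 56. REACTOME_COMPLEX_I_BIOGENESIS, the assembly of NADH dehydrogenase, had -1.94 with 82% of 39. KEGG_OXIDATIVE_PHOSPHORYLATION, with the lowest score of all sets, had a smaller leading edge, 61%, and the median over all sets was 29%. The ranks at the maximum of these 4 sets ran from 2398 to 3775.

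Mitochondrial functions outside the chain were weaker or not called. REACTOME_MITOCHONDRIAL_PROTEIN_IMPORT in the authors' deposited table had an NES of -1.78 and WONG_MITOCHONDRIA_GENE_MODULE -1.77, both called. REACTOME_MITOCHONDRIAL_FATTY_ACID_BETA_OXIDATION had -1.70 at q = 0.0498. The citric acid cycle by itself, KEGG_CITRATE_CYCLE_TCA_CYCLE, had -1.56 (q = 0.149), and REACTOME_CITRIC_ACID_CYCLE_TCA_CYCLE had -1.46 (q = 0.237). REACTOME_TRANSCRIPTIONAL_ACTIVATION_OF_MITOCHONDRIAL_BIOGENESIS, the PGC-1 regulators, had 0.88 (q = 0.792), on the other side of 0. STEIN_ESRRA_TARGETS_UP, targets of the estrogen-related receptor alpha that works with PGC-1, had -1.81 over 314 genes and was called. KEGG_PARKINSONS_DISEASE, a disease set made up mostly of respiratory chain subunits, had -1.82.

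Glycolysis was not called on the opposite side. All 5 sets naming glycolysis or gluconeogenesis had an NES below 0, from -0.83 to -1.41, and none was called. REACTOME_GLYCOLYSIS had -0.83 (q = 0.928) and KEGG_GLYCOLYSIS_GLUCONEOGENESIS -1.34 (q = 0.355) in the authors' deposited table. Sets naming hypoxia were among those higher in YUMM3.3. The 37 sets of hypoxia and glucose metabolism gave 6 calls (16.2%, against 11.8% of all sets), all of them lists from single studies. The theme's median NES was 0.91, below the 1.08 of all sets, and 15 of its sets lay below 0. ELVIDGE_HYPOXIA_UP had an NES of 1.86 over 147 genes and MANALO_HYPOXIA_UP 1.70 over 169. GROSS_HYPOXIA_VIA_ELK3_AND_HIF1A_UP had 1.70 over 124. GROSS_HYPOXIA_VIA_HIF1A_DN, a list of reverse naming outside the theme, was also called higher in YUMM3.3, at 1.99. Both turn at rank 1841. The names of these GROSS lists do not say which way their genes move in hypoxia, so they are not read as a hypoxia response.

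A study of hypoxia and knockdown of HIF factors, the oxygen-sensing transcription factors, gave 8 sets. The 4 called were genes induced by low oxygen, genes induced by DMOG, which stabilises HIF, and genes that fell when HIF1A alone or with HIF2A was removed. ELVIDGE_HYPOXIA_BY_DMOG_UP in the authors' deposited table had an NES of 1.69, ELVIDGE_HIF1A_TARGETS_DN 1.74 and ELVIDGE_HIF1A_AND_HIF2A_TARGETS_DN 1.70, and all 4 turn at rank 1550. The 4 of reverse naming lay below 0 and were not called. Other lists of HIF targets were mixed. QI_HYPOXIA_TARGETS_OF_HIF1A_AND_FOXA2 had 1.64 (q = 0.0320) and was called, while SEMENZA_HIF1_TARGETS had -1.04 (q = 0.660) and PID_HIF1_TFPATHWAY -1.25 (q = 0.433).

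Interferon sets were called higher in B16F10 in 8 of 20 cases (40%, against 1.47% of all sets), and none was called higher in YUMM3.3. Their median NES was -1.52, and 18 of 20 lay below 0. Type I interferons and interferon gamma both induce antiviral genes in most cells. SANA_RESPONSE_TO_IFNG_UP, genes induced by interferon gamma in endothelium, had an NES of -2.22 over 58 genes in the authors' deposited table. MOSERLE_IFNA_RESPONSE, a short list of genes induced by interferon alpha, had -2.11 with 90% of its 21 genes in the leading edge. HECKER_IFNB1_TARGETS had -1.96 over 70 genes and BROWNE_INTERFERON_RESPONSIVE_GENES -1.94 over 50.

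Most of the called sets were lists of induced genes. ZHANG_INTERFERON_RESPONSE had an NES of -1.92, BOSCO_INTERFERON_INDUCED_ANTIVIRAL_MODULE -1.84 and REACTOME_INTERFERON_ALPHA_BETA_SIGNALING -1.75 in the authors' deposited table. Not called were REACTOME_INTERFERON_GAMMA_SIGNALING at -1.45 (q = 0.247), REACTOME_ANTIVIRAL_MECHANISM_BY_IFN_STIMULATED_GENES at -1.28 (q = 0.411) and PID_IFNG_PATHWAY at -0.89 (q = 0.873). The DNA and RNA sensors upstream were not called either, with REACTOME_DDX58_IFIH1_MEDIATED_INDUCTION_OF_INTERFERON_ALPHA_BETA at -1.14 (q = 0.555). NATSUME_RESPONSE_TO_INTERFERON_BETA_UP, from glioma cells, had 1.47 (q = 0.0997) on the YUMM3.3 side. MOSERLE_IFNA_RESPONSE, ZHANG_INTERFERON_RESPONSE and REACTOME_INTERFERON_ALPHA_BETA_SIGNALING turn at the same rank, 1408.

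Antigen presentation, which interferon is known to raise, gave no call on the B16F10 side. KEGG_ANTIGEN_PROCESSING_AND_PRESENTATION had an NES of -1.30 (q = 0.390) and REACTOME_MHC_CLASS_II_ANTIGEN_PRESENTATION -0.98 (q = 0.741) in the authors' deposited table. Of the 10 sets of that theme 9 lay below 0. GOLDRATH_ANTIGEN_RESPONSE, genes of T cells that divide on meeting antigen, was called higher in YUMM3.3 at 1.66 and is a list about proliferating T cells, not about presentation.

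Inflammatory response sets other than interferon lay near the background. For TNF, NF-kB, Toll-like receptors and LPS, 7 of 52 sets were called higher in YUMM3.3 (13.5%, against 11.8% of all sets) and none higher in B16F10, with a median NES of 1.12 and 11 sets below 0. PHONG_TNF_TARGETS_UP, genes induced by TNF in lung epithelial cells, had an NES of 1.98 with 56% of its 57 genes in the leading edge in the authors' deposited table. SCHOEN_NFKB_SIGNALING had 1.75, with 14% of its 29 genes in the leading edge and a rank at the maximum of 126, so few genes carried it. Interleukin, chemokine and JAK-STAT sets were called in 5 of 68 cases (7.35%), all higher in YUMM3.3, and 16 lay below 0. REACTOME_INTERLEUKIN_4_AND_INTERLEUKIN_13_SIGNALING was called at q = 0.00516 and AZARE_NEOPLASTIC_TRANSFORMATION_BY_STAT3_UP at q = 0.00589. DAUER_STAT3_TARGETS_DN, genes lowered by STAT3, was called higher in B16F10 at -1.86 and turns at rank 1267 with BOSCO_INTERFERON_INDUCED_ANTIVIRAL_MODULE.

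Lysosome and iron sets were called higher in B16F10. KEGG_LYSOSOME, the hydrolases and membrane proteins of the lysosome, had an NES of -2.09 with 56% of its 117 genes in the leading edge in the authors' deposited table. REACTOME_IRON_UPTAKE_AND_TRANSPORT had -2.12 over 54 genes and REACTOME_TRANSFERRIN_ENDOCYTOSIS_AND_RECYCLING, the route by which cells take iron from transferrin, -2.02 over 29. REACTOME_ROS_AND_RNS_PRODUCTION_IN_PHAGOCYTES had -2.04 and REACTOME_INSULIN_RECEPTOR_RECYCLING -1.95. These last 4 all turn at rank 836, and each is known to hold subunits of the vacuolar ATPase, the pump that acidifies endosomes, lysosomes and melanosomes. KEGG_VIBRIO_CHOLERAE_INFECTION, another set with that pump, had -1.76 and turned nearby at rank 847.

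Most sets of the wider vesicle theme were not called. Of its 19 sets 2 were called higher in B16F10, the lysosome and the transferrin set (10.5%, against 1.47% of all sets). The theme's median NES was -0.99, against 1.08 over all sets, and 14 of its sets lay below 0. For autophagy, REACTOME_AUTOPHAGY had -1.37 (q = 0.329) and KEGG_REGULATION_OF_AUTOPHAGY -1.30 (q = 0.386) in the authors' deposited table. KEGG_ENDOCYTOSIS lay on the other side at 1.42 (q = 0.128), and REACTOME_CLATHRIN_MEDIATED_ENDOCYTOSIS had 1.39 (q = 0.148).

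Breakdown of sugars in the lysosome was called with it. KEGG_OTHER_GLYCAN_DEGRADATION had an NES of -1.85 with 60% of its 15 genes in the leading edge, and KEGG_GLYCOSAMINOGLYCAN_DEGRADATION -1.72 with 65% of 20, in the authors' deposited table. REACTOME_SIALIC_ACID_METABOLISM had -1.73 and REACTOME_SYNTHESIS_OF_SUBSTRATES_IN_N_GLYCAN_BIOSYTHESIS -1.74. All 6 sets naming N-glycans were below 0, and the last was the one called. Sets for building glycosaminoglycans lay above 0, as 73.3% of all sets did. The Reactome set of the tetrasaccharide linker, the sugar bridge that joins these chains to proteoglycans, had 1.66 (q = 0.0271) and REACTOME_HS_GAG_BIOSYNTHESIS, the making of heparan sulfate, 1.59 (q = 0.0454), and both were called higher in YUMM3.3. REACTOME_CHONDROITIN_SULFATE_DERMATAN_SULFATE_METABOLISM had 1.40 (q = 0.137) and REACTOME_HS_GAG_DEGRADATION, another set of breakdown, 1.07 (q = 0.477), neither called. Other building sets were not called either, with REACTOME_CHONDROITIN_SULFATE_BIOSYNTHESIS at 1.24. Keratan sulfate biosynthesis at 0.93 and the KEGG sets of chondroitin and heparan sulfate biosynthesis at 1.00 and 0.96 lay below the 1.08 of all sets. A difference between building and breakdown was not tested. The theme's word pattern gave 11 sets with the degradation set as its call, and with names that hold GAG, an addition made after the values were seen, it gave 14 sets with 2 calls on the YUMM3.3 side and 1 on the B16F10 side.

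Pigment and melanoma sets gave 1 call in 7. KEGG_TYROSINE_METABOLISM, which includes the melanin enzymes that act on tyrosine, was called higher in B16F10 with an NES of -1.94, q = 0.00256 and 29% of its 34 genes in the leading edge, in the authors' deposited table. KEGG_MELANOGENESIS, which holds mainly the WNT, MC1R and endothelin signals that regulate pigment, had -1.12 (q = 0.567). KEGG_MELANOMA, a pathway map of growth factors, MAPK and the cell cycle, had 1.29 (q = 0.226). LEE_NEURAL_CREST_STEM_CELL_UP, the embryonic origin of melanocytes, had 1.42 (q = 0.127), and WINNEPENNINCKX_MELANOMA_METASTASIS_UP, which is rich in replication genes, 1.30 (q = 0.218). The theme is small, and its median of -0.74 falls between sets on either side of 0. With names ending in DN kept in, it held 11 sets with 1 call on each side.

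Lipid and other metabolism lay mostly below 0 with few calls. Of 34 sets of cholesterol, SREBP and lipid, 24 were below 0 and 1 was called, the beta-oxidation set given above. None of 9 transporter sets was called, though 8 were below 0 and the median was -1.42; the lowest score was -1.66 (q = 0.0734) for REACTOME_AMINO_ACID_TRANSPORT_ACROSS_THE_PLASMA_MEMBRANE. KEGG_PROPANOATE_METABOLISM, a mitochondrial route for short and branched chains, had -1.75 and was called in the authors' deposited table. KEGG_PORPHYRIN_AND_CHLOROPHYLL_METABOLISM, the heme pathway, had -1.72. None of 14 sets of unfolded protein, heat shock and proteasome was called, and 12 lay below 0, with REACTOME_HSF1_DEPENDENT_TRANSACTIVATION lowest at -1.31 (q = 0.374). None of 9 xenobiotic and glutathione sets was called, and REACTOME_CYTOCHROME_P450_ARRANGED_BY_SUBSTRATE_TYPE had the largest score at -1.24 (q = 0.443).

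Chromatin and developmental sets had calls on either side. Of 32 polycomb sets, 5 were called higher in YUMM3.3 (15.6%, against 11.8% of all sets) and 1 higher in B16F10 (3.12%, against 1.47%). WIEDERSCHAIN_TARGETS_OF_BMI1_AND_PCGF2, genes changed on loss of the polycomb proteins BMI1 and PCGF2, had an NES of 2.13 over 49 genes in the authors' deposited table. MEISSNER_NPC_HCP_WITH_H3K4ME3_AND_H3K27ME3, CpG-rich promoters with both an active and a repressive mark in neural precursors, had 1.71. The CpG-poor promoter classes went the other way, with MIKKELSEN_NPC_LCP_WITH_H3K4ME3 at -2.10 over 48 genes and MIKKELSEN_MEF_LCP_WITH_H3K27ME3 at -1.75 over 52. These marks were measured in other cells, and no chromatin was measured in the lines. Histone deacetylase sets were called in 5 of 30 cases (16.7%, against 11.8% of all sets), all higher in YUMM3.3, with SENESE_HDAC3_TARGETS_UP at 1.81. With names ending in DN kept in, 9 of 45 were called on that side, SENESE_HDAC2_TARGETS_DN among them, also at 1.81. The calls thus give no direction of deacetylase activity.

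WNT, NOTCH and hedgehog sets were rarely called. Of 54 sets, 2 were higher in YUMM3.3 (3.70%), although 47 lay above 0. ONDER_CDH1_SIGNALING_VIA_CTNNB1, genes that depend on beta-catenin after loss of E-cadherin, had an NES of 1.70 and KENNY_CTNNB1_TARGETS_UP 1.61 in the authors' deposited table. Stem cell sets were called in 6 of 41 cases (14.6%, against 11.8% of all sets), all higher in YUMM3.3. LIM_MAMMARY_STEM_CELL_UP, genes of the basal mammary layer, had 1.83 over 389 genes and BOQUEST_STEM_CELL_UP, from adipose stromal cells, 1.81 over 226. Ultraviolet response sets, of interest for a skin tumour, were called in 8 of 43 cases (18.6%, against 11.8% of all sets). GENTILE_UV_RESPONSE_CLUSTER_D2 led them at 1.78. With names ending in DN kept in, 14 of 56 were called higher in YUMM3.3 (25%), SIMBULAN_UV_RESPONSE_IMMORTALIZED_DN among them at 1.85. The calls thus give no direction of an ultraviolet response. For neuronal, ion channel and GPCR sets 2 of 45 were called (4.44%), with REACTOME_NCAM_SIGNALING_FOR_NEURITE_OUT_GROWTH at 1.78.

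**Figure D3:**
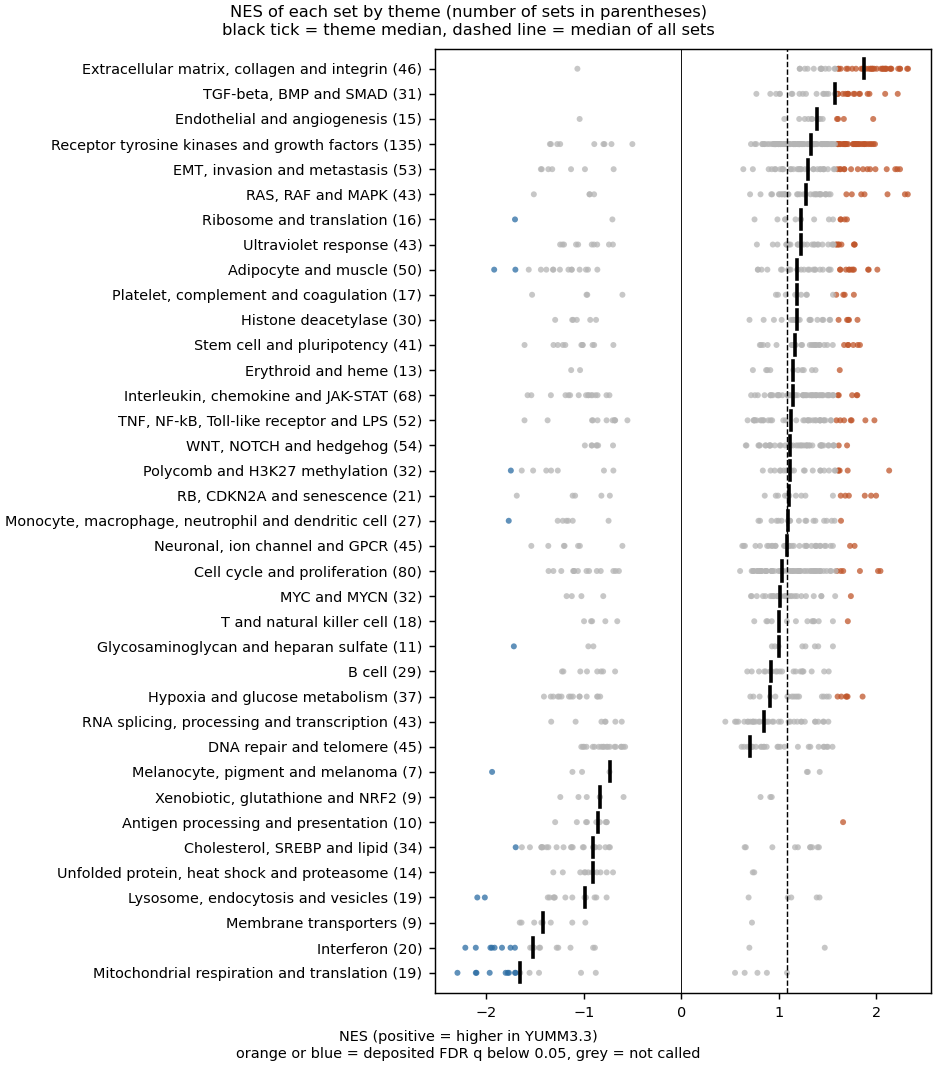
NES of every set (points, horizontal axis, positive is higher in YUMM3.3) in each of 37 themes (vertical axis, ordered by median), with called sets coloured by side, the theme median as a black tick and the median of all sets, 1.08, as a dashed line. Matrix and TGF-beta sets gather at the right with medians of 1.88 and 1.58, and interferon and mitochondrial sets at the left with medians of -1.52 and -1.65.

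Themes named for other cell types were included to see what they show in cultures labelled as melanoma lines. None of 29 B cell sets was called, and the highest was SHAFFER_IRF4_TARGETS_IN_ACTIVATED_B_LYMPHOCYTE at 1.51 (q = 0.0803). T and natural killer cell sets gave 1 call in 18, LI_INDUCED_T_TO_NATURAL_KILLER_UP at 1.71 in the authors' deposited table. Of 27 monocyte, macrophage, neutrophil and dendritic cell sets, SHAFFER_IRF4_TARGETS_IN_ACTIVATED_DENDRITIC_CELL at 1.64 was called higher in YUMM3.3 and LIAN_NEUTROPHIL_GRANULE_CONSTITUENTS at -1.77 higher in B16F10. The neutrophil set had 18% of its 22 genes in the leading edge.

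Stromal and vascular names gave calls as well, and the difference in their frequency from other sets was not tested. Of 50 adipocyte and muscle sets, 11 were higher in YUMM3.3 (22%, against 11.8% of all sets) and 2 higher in B16F10 (4%, against 1.47%). BURTON_ADIPOGENESIS_1, genes of the first hours of fat cell differentiation, had an NES of 2.01 and BURTON_ADIPOGENESIS_6, a later cluster, -1.92 over 163 genes in the authors' deposited table. Of 15 endothelial sets, 4 were higher in YUMM3.3 (26.7%), led by VART_KSHV_INFECTION_ANGIOGENIC_MARKERS_UP at 1.97. Platelet, complement and coagulation sets were called in 4 of 17 cases (23.5%). A set of platelet-specific genes had 1.77, and the KEGG set of complement and coagulation had 1.67 with 8% of its 61 genes in the leading edge. RIZ_ERYTHROID_DIFFERENTIATION_12HR was the 1 erythroid set called of 13, at 1.62. The presence of other cells in the cultures was not tested, since the files give no marker genes.

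Published signatures deposited as an UP and a DN list allow a check on direction. For 698 signatures the authors' deposited table holds both lists. The lists lay on opposite sides of 0 in 263 (37.7%), of which 131 had the UP list on the YUMM3.3 side and 132 the DN list. Both lists were above 0 in 398 and below 0 in 37. Thus a call on the YUMM3.3 side was about as frequent for DN lists (111) as for UP lists (109), and a name alone does not give a direction of the process it describes.

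Both lists were called in 14 signatures, 10 of them with both higher in YUMM3.3 and 4 on opposite sides. HOLLERN_EMT_BREAST_TUMOR had its UP list at 2.21 and its DN list at -1.98, the widest gap among those 4. VECCHI_GASTRIC_CANCER_ADVANCED_VS_EARLY, genes that separate advanced from early gastric cancer, had 2.10 and -1.75 in the authors' deposited table. LIM_MAMMARY_STEM_CELL had 1.83 and -1.72. WONG_ENDMETRIUM_CANCER ran the other way, with its UP list at -1.73 and its DN list at 1.82. VART_KSHV_INFECTION_ANGIOGENIC_MARKERS is an example of a signature with both lists called on the YUMM3.3 side.

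**Figure D4:**
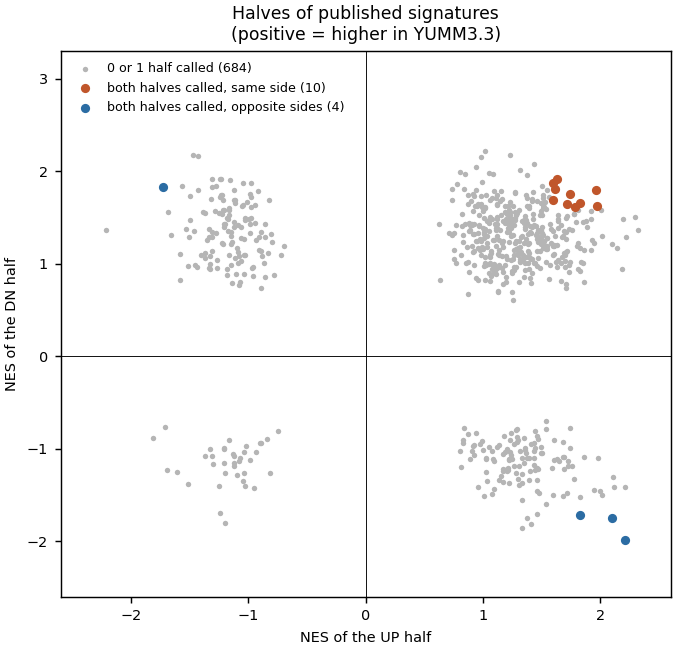
NES of the UP list (horizontal axis) against NES of the DN list (vertical axis) for 698 published signatures, positive being higher in YUMM3.3. Most points lie in the upper right quadrant (398), with 263 on opposite sides, and the 4 signatures with both lists called on opposite sides lie at the corners of the other quadrants.

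The same sets were then read in the myeloid cells of mice bearing these lines. The marrow comparison holds 2 libraries from YUMM3.3-bearing and 3 from B16F10-bearing mice, and the spleen comparison 2 of each. These libraries are not shared with the lines, and in bulk RNA more cells of a type and more RNA per cell cannot be told apart. Below, a positive NES means higher with the YUMM3.3 tumour, and 3868 sets were listed in common in each tissue. Across those sets Pearson's r of the NES was -0.08 in marrow and 0.02 in spleen, and Spearman's rho was -0.06 and -0.04. These are descriptions across sets that share genes, and neither shows a common order. The median NES of the shared sets was -0.72 in marrow and -1.04 in spleen, where 48.3% and 27.1% lay above 0, so the host values below are read beside a lean toward the B16F10 tumour in spleen.

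Overlap of calls differed between the lists. The background in marrow was 8.4% of 3883 sets called higher with the YUMM3.3 tumour and 8.09% higher with the B16F10 tumour, and in spleen 1.47% and 9.63%. Of the 458 sets higher in the YUMM3.3 line, 21 were called higher with the YUMM3.3 tumour in marrow, which is 4.59% of the line's list and 6.44% of the marrow list. More of the 458, 40, were called higher with the B16F10 tumour in marrow (8.73% of the line's list and 12.7% of the marrow list). In spleen 62 of the 458 were called higher with the B16F10 tumour (13.5% of the line's list and 16.6% of the spleen list) and 3 with the YUMM3.3 tumour. Of the 57 sets higher in the B16F10 line, 28 were called higher with the B16F10 tumour in spleen, which is 49.1% of the line's list and 7.49% of the spleen list. In marrow none of the 57 was called higher with the B16F10 tumour, and 15 were called higher with the YUMM3.3 tumour (26.3% and 4.6%).

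Respiratory sets were among those 15. By the authors' deposited tables, KEGG_OXIDATIVE_PHOSPHORYLATION had an NES of -2.30 in the lines, 2.76 in marrow and -1.83 in spleen. REACTOME_RESPIRATORY_ELECTRON_TRANSPORT had -2.10, 2.83 and -1.73. The median of the 19 mitochondrial sets was -1.65 in the lines, 1.47 in marrow and -1.47 in spleen. These sets were thus higher in the B16F10 line, higher in marrow with the YUMM3.3 tumour and higher in spleen with the B16F10 tumour, each comparison called by itself.

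Interferon sets and KEGG_LYSOSOME had scores below 0 in the lines and in spleen, as most sets did in spleen. HECKER_IFNB1_TARGETS had an NES of -1.96 in the lines, a score above 0 that was not called in marrow (q = 0.340), and -2.22 in spleen in the authors' deposited tables. SANA_RESPONSE_TO_IFNG_UP had -2.22, -1.41 (q = 0.151) and -1.77. Of the 20 interferon sets 7 were called higher with the B16F10 tumour in spleen (background 9.63%), and their median was -1.52 in the lines, 0.18 in marrow and -1.58 in spleen. KEGG_LYSOSOME had -2.09 in the lines, -1.23 (q = 0.297) in marrow and -2.00 in spleen. KEGG_TYROSINE_METABOLISM, the pigment-related set, was called in the lines but had 1.39 (q = 0.180) in marrow and -1.21 (q = 0.369) in spleen.

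Matrix, the leading theme of the YUMM3.3 line, had a median above 0 in marrow and below 0 in spleen. NABA_CORE_MATRISOME had an NES of 2.32 in the lines, 1.84 in marrow and -1.07 in spleen in the authors' deposited tables. The theme's median was 1.88, 1.07 and -1.17. Of its 46 sets, 7 were called higher with the YUMM3.3 tumour in marrow, where 8.4% of all sets were. In spleen 2 of the 46 were called higher with the B16F10 tumour, where 9.63% of all sets were. PID_INTEGRIN1_PATHWAY had 2.32, 0.99 and -1.62. TGF-beta sets had medians of 1.58, -0.93 and -0.96, and EMT sets 1.30, -0.92 and -1.12. The host medians of these 2 themes, and that of matrix in spleen, lay near the -0.72 and -1.04 of all shared sets. FISCHER_G2_M_CELL_CYCLE, called higher in the YUMM3.3 line at 2.04, had -2.41 in marrow, where it was higher with the B16F10 tumour, and -1.10 in spleen. Cells of the host and cells of the line are different types, so these values stand side by side and no difference between them was tested.

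**Figure D5:**
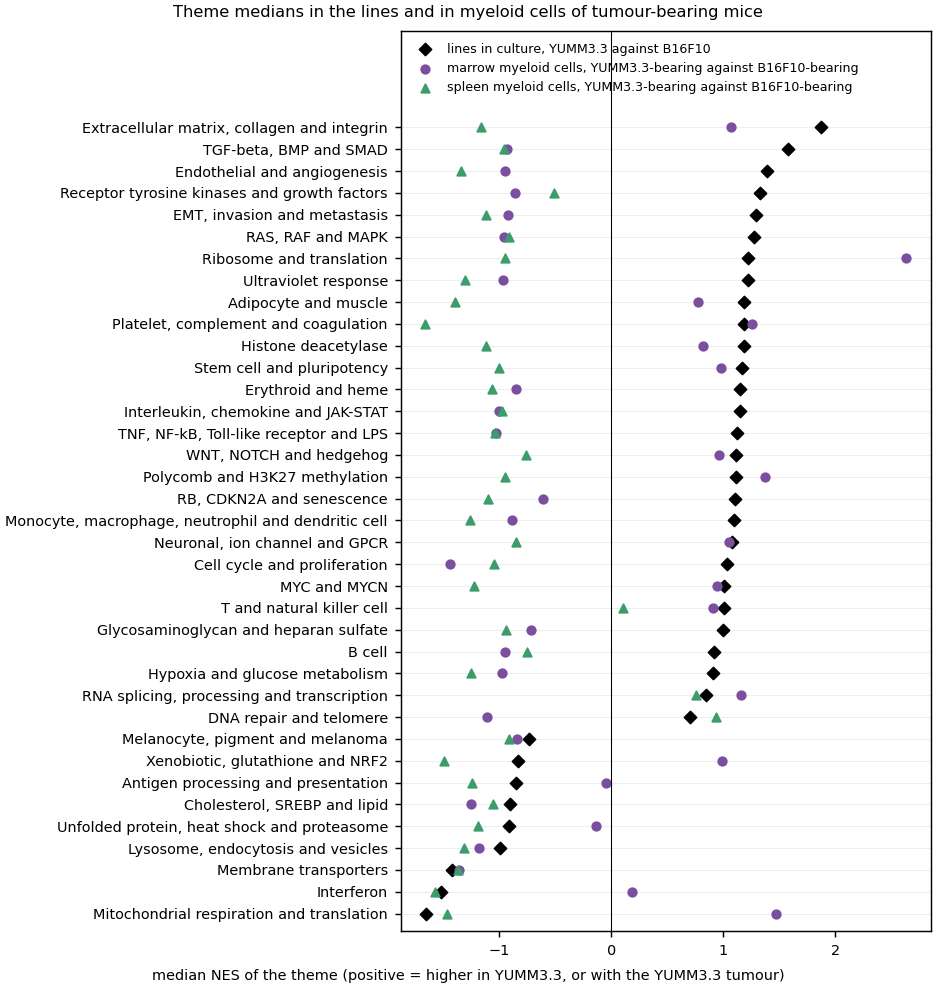
Median NES (horizontal axis, positive is higher in YUMM3.3 or with the YUMM3.3 tumour) of each of 37 themes (vertical axis) in the lines (diamonds), marrow myeloid cells (circles) and spleen myeloid cells (triangles). Matrix sets have medians of 1.88, 1.07 and -1.17, mitochondrial sets of -1.65, 1.47 and -1.47, and interferon sets of -1.52, 0.18 and -1.58.

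The deposited q values describe how sets are ranked within this pair of lines. The smallest nominal p above 0 in the authors' deposited table was 0.0014, below the 0.05 that relabelling 3 against 3 libraries can reach one-sided and the 0.1 it can reach two-sided, so they do not measure how far cultures of a line differ. Of the 39 themes, 23 had calls on the YUMM3.3 side alone, 6 on the B16F10 side alone, 4 on both and 6 on neither. Of the called sets, 273 on the YUMM3.3 side and 32 on the B16F10 side belong to none of the themes.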

How the data were processed

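RNA from cultures of the 2 lines, purified with RNeasy columns, was sequenced on an Illumina platform, with 3 libraries per line, per the labels' protocols. Tools named in the submitters' processing notes are DESeq2 1.22.2, featureCounts 1.6.0, STAR 2.7.1a and FastQC 0.11.8, and the build is mm10; their roles are not stated. The ranking of genes and the permutation scheme are not given in the sources used. The deposited scores, per the file headers, are an enrichment score (ES) and an NES for each gene set, with set size, rank at the maximum and leading edge. The deposited p-values comprise, per the file headers, nominal p, FDR q and family-wise error p. Nothing was refitted. Sets were counted from 6 reports, 2 of them of the lines, at a deposited q below 0.05, using Python 3.11.15 and pandas 2.3.3, and the counting was checked on simulated reports. Host values were signed so that positive means higher with the YUMM3.3 tumour.

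The 39 themes are word patterns in set names, without names ending in DN, and 53 names that matched only by letters inside other words were removed after names and values had been seen. The themes, lists and comparison were chosen with earlier results of these data known. Sets named are the 12 with the largest NES size on each side (at most 2 with the same first word), up to 3 called sets per theme and side (or the single set with the largest NES size where none was called), and up to 6 signatures with both lists called on opposite sides. Some sets and 2 themes are not reported here, though counts of sets and themes include them. Other sets, and the families from single studies, were named after their values were seen. Alternatives were other thresholds, set sizes, collections and theme rules.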

Additional observations from a re-analysis of the deposited data

How the results depend on the processing

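The lean toward YUMM3.3 was present under every alternative run, while the counts moved with the threshold. At a deposited q below 0.25, 1372 sets were called higher in YUMM3.3 and 144 higher in B16F10, with 28 signatures called on opposite sides. At a q below 0.01 these were 197, 22 and 1. At a family-wise p below 0.05 they were 79, 14 and 1, and 12 themes in place of 23 had calls on the YUMM3.3 side alone. An unadjusted nominal p below 0.01 gave 614 and 111 sets and 15 signatures. Canonical collections alone gave 90 and 25 sets, with 9 such themes, and the lists from single studies alone 368 and 32. Sets of 25 to 200 genes gave 329 and 41. Of 32 themes with more calls on one side, that side turned in 3, all at a q below 0.25: pigment and melanoma, glycosaminoglycan, and cholesterol and lipid. In canonical collections 16 of 31 themes kept their side and the rest had no call or a tie. The name patterns as first written, an alternative chosen after seeing the data, changed no side. Adding names that hold GAG to the glycosaminoglycan pattern, also chosen after seeing the data, gave 2 calls on the YUMM3.3 side in place of none and kept the 1 on the B16F10 side. No paired analysis was possible because the reports give no values per library, and for the same reason leaving out each replicate in turn, and any reading of depth, was not possible.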
